A study of Mus musculus with 4 samples.

Results

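The genes described here are 38 imprinted genes of the mouse, taken as a fixed list of symbols and looked up by symbol in the count tables. Of the 38 genes, 37 had a row in the tables, which together hold 26041 gene symbols. Kcnq1ot1 was not analysed here. By the allele each gene is mainly expressed from in other tissues, 21 of the 38 were classed as paternally expressed and 16 as maternally expressed. Gnas, which uses either allele depending on the transcript, was kept apart.

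The data are from single germ cells of 4 wk old mouse testes, selected in a cell sorter for tdTomato. All mice carried the Eomes-tdTomato knock-in allele, in which the Eomes locus drives the reporter. Per the paper, this allele was made in B6N embryonic stem cells and the chimeras were crossed to B6N. The paper lists the luxoid allele under its own stock and does not state the background of the compared mice. Whether each sorted cell expressed the reporter was not tested. Plzf +/+ mice were compared with Plzf lu/lu mice, which are homozygous in all their cells for the luxoid mutation of Plzf, the gene listed as Zbtb16. Transcript 3′ ends were counted by unique molecular identifiers (UMIs), with 1 barcode for each well of a 384-well plate. Plates 1, 2 and 4 gave 3 Plzf +/+ libraries with 317, 303 and 277 cells, and plates 3 and 4 gave 2 Plzf lu/lu libraries with 314 and 38 cells. The labels name plates but no animals, so p-values measure only the spread between these libraries, and apart from plate 4 the plate and the genotype cannot be told apart.

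Imprinted genes are expressed mainly from a single parental allele. A mark laid down in the egg or the sperm lineage at a control region, usually DNA methylation, sets which copy is silent. In the male germ line the inherited marks are erased in primordial germ cells. The paternal pattern is then set on both chromosomes, starting before birth, so spermatogonia carry this pattern on both copies. Many imprinted genes act in fetal growth, in the placenta or in the brain, and several, such as Ube3a in neurons and Copg2, Blcap and Trappc9 in the brain, are imprinted only in certain tissues. UMI counts of these tables cannot tell the parental alleles apart, so the words paternal and maternal below name the class of a gene and not the allele it was read from.

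The libraries held 254514 to 2608702 UMIs, and the cells 612 to 95069. Zbtb16 itself stood at 76.7, 51.8 and 72.3 CPM (UMIs per 1000000 of the library) in Plzf +/+ plates 1, 2 and 4 and at 18.3 and 12.1 CPM (46 and 3 UMIs) in Plzf lu/lu plates 3 and 4 (log2 difference -1.97, SE 0.30; edgeR's quasi-likelihood test, adjusted p = 0.0319). The germ cell markers Dazl, Ddx4, Mael and Tdrd1 together took 1788 to 2216 CPM in every library, and none of the 4 was at 0 in any. Cells in which spermatid genes made up at least 1% of the UMIs numbered 39 and 7 in Plzf +/+ and Plzf lu/lu, and cells rich in genes of somatic testis cells by the same limit numbered 10 and 20. A total of 45 and 25 cells lay near this limit, from 0.5% to 2%. The 9 Sertoli cell markers with a row in the tables, of 10 listed, together took 148 to 187 CPM in Plzf +/+ libraries and 876 and 523 CPM in Plzf lu/lu plates 3 and 4, with Clu and Defb19 the most abundant. The other listed marker, Amh, was not analysed here. Of the cells, 58.1% to 66.0% had a UMI of Gfra1, the GDNF receptor that marks early undifferentiated spermatogonia, in Plzf +/+ libraries, against 37.9% and 39.5% in Plzf lu/lu libraries. Libraries shared 0 to 271 well barcodes, since every plate used the same barcode design.

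Promoter windows of 300 bases are shown for 4 members, from 250 bases before to 50 bases after a transcript start. Every CG dinucleotide is in capitals, as a site where DNA can be methylated. Whether a window lies in the control region of its domain was not examined. The windows are RefSeq sequences of the build GRCm38.p6. Snrpn and Phlda2 are shown because the genotype test called them over all cells or without cells rich in spermatid or somatic genes, and Peg3 and Usp29 because they are transcribed in opposite directions from a shared start region. The windows lie at chr7:60005150-60005449 for Snrpn (minus strand, the furthest downstream of its 4 annotated windows), chr7:143502475-143502774 for Phlda2 (minus strand), chr7:6730370-6730669 for Peg3 (minus strand) and chr7:6730333-6730632 for Usp29 (plus strand).
Snrpn: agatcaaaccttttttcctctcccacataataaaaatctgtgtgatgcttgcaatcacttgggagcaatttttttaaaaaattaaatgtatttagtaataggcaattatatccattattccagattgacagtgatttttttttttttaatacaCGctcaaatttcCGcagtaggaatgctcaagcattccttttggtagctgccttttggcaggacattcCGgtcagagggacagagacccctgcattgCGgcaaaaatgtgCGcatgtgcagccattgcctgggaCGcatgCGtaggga
Phlda2: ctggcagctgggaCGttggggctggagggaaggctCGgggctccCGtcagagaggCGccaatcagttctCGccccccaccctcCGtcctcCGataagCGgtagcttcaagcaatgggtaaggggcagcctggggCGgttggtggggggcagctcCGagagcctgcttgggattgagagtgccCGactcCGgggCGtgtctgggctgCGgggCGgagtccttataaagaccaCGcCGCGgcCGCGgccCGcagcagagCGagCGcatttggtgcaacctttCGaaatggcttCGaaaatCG
Peg3: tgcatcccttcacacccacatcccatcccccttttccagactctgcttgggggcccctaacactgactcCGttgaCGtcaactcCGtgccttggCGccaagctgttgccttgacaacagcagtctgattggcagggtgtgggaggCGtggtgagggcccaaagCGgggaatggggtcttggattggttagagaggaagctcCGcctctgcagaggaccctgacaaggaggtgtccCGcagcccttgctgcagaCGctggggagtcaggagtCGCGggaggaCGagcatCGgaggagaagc
Usp29: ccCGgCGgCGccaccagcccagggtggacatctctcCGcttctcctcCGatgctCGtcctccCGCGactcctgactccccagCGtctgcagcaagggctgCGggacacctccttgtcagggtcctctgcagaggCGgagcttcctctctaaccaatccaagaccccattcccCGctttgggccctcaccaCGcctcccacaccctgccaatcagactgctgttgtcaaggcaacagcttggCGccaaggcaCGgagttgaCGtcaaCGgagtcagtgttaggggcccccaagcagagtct
These windows held 7, 26, 13 and 17 CG dinucleotides, in that order, and 52.1%, 16.9%, 37.9% and 31.4% of all 32851 windows in the table held at least as many. At least 1 CG was found in 94.6% of all windows. Windows were found for 31 of the 38 members, and the richest window of a member held a median of 17 CG, against 8 over all genes. The Peg3 and Usp29 windows overlap by 263 bases. Peg3 was read as 217 UMIs over all libraries and Usp29 as 3.

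Most of the imprinted genes were transcribed in these cells, but at very unequal levels. A level of at least 10 CPM, averaged over the 5 libraries, was reached by 22 of the 37 genes, and 31 had at least 20 UMIs in all. CPM are relative to library sizes scaled by the trimmed mean of M values (TMM), and 3′ UMI counts take each molecule once whatever its length. The highest levels were those of Gnas, which encodes the alpha subunit of the stimulatory G protein, at 111 CPM, Inpp5f, a phosphoinositide phosphatase gene, at 99.2 CPM, and Ube3a, an E3 ubiquitin ligase gene, at 98.0 CPM. Cells rich in spermatid or somatic genes gave 16.2% of the UMIs of Gnas and 2.35% of those of Inpp5f. Without them, Gnas was at 107, 95.8 and 105 CPM in Plzf +/+ plates 1, 2 and 4 and at 112 and 76.9 CPM in Plzf lu/lu plates 3 and 4. Inpp5f was then at 127, 114 and 129 CPM and at 66.9 and 89.7 CPM, so the top place of Gnas rests on the rich cells. At the other end, Magel2 had 1 UMI, Zim1 and Usp29 had 3 each, Peg12 had 4, Airn had 6 and Kcnq1 had 9 UMIs over all 1249 cells. Among the 13728 genes that passed the filter on low counts, 27 were imprinted genes of the list, with a median of 26.8 CPM against 28.2 CPM over all of them.

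Paternally and maternally expressed genes were both present, and neither class was silent. The 20 paternally expressed genes with a row took 3693 UMIs in all (394 CPM of the raw totals) and the 16 maternally expressed genes 4003 UMIs (427 CPM). Of the maternal UMIs, Ube3a gave 899, Blcap 505, Copg2 414 and Trappc9 196, all named above as imprinted only in certain tissues. Inpp5f, of which a short isoform is the imprinted product in the brain, gave 935 of the paternal UMIs. Whether these genes are imprinted in spermatogonia was not tested. Summed over a class, the paternal genes took 348 to 438 CPM in Plzf +/+ libraries and 422 and 389 CPM in Plzf lu/lu plates 3 and 4, and the maternal genes 394 to 471 CPM and 417 and 475 CPM, so both sums overlapped between the genotypes. The median gene stood at 10.1 CPM in the paternal class and 19.8 CPM in the maternal class, and 10 of 20 and 11 of 16 genes reached 10 CPM. At least 1 UMI of a paternal gene was found in 83.4% of the 1249 cells and of a maternal gene in 84.4%, with a median of 2 genes of each class per cell and at most 9.

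**Figure D1:**
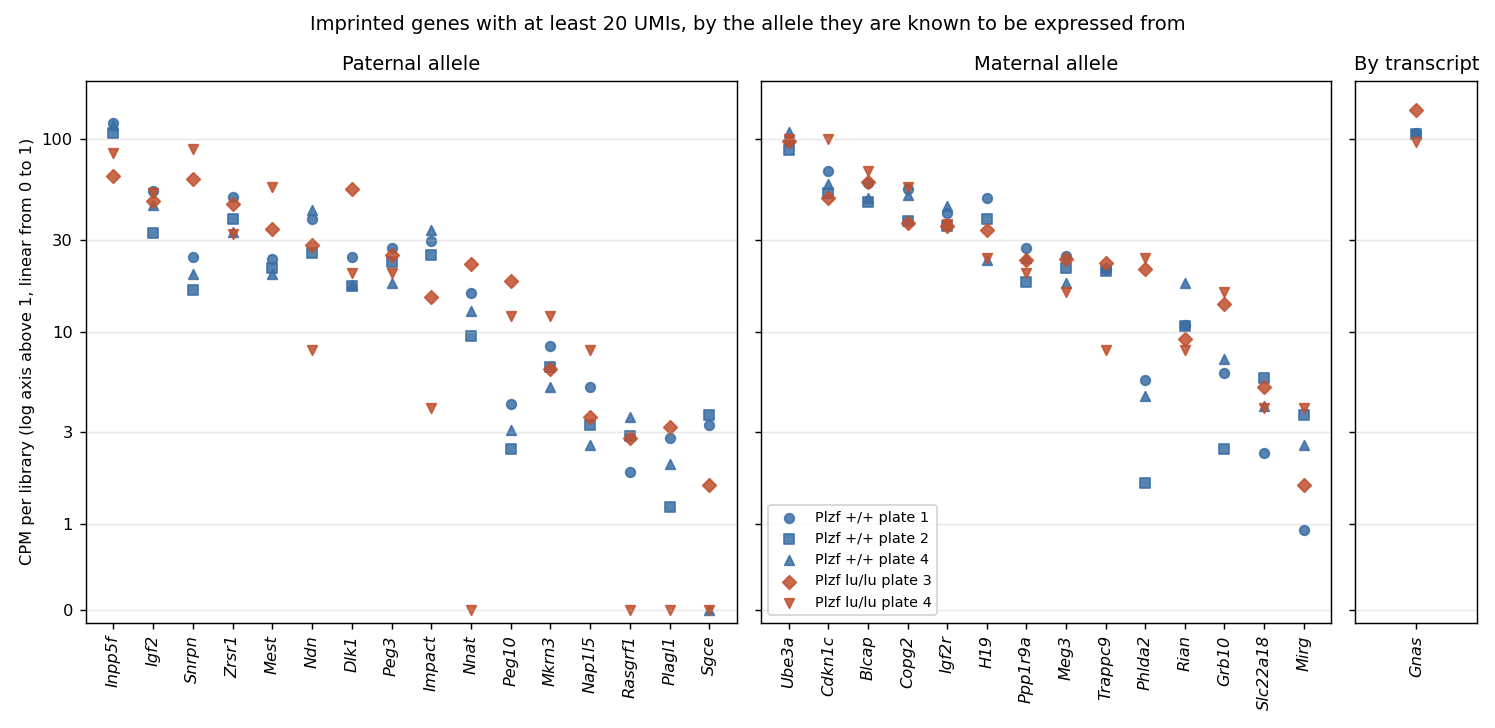
Level of each imprinted gene with at least 20 UMIs in every library, in CPM on an axis that is logarithmic above 1 and linear from 0 to 1, with Plzf +/+ libraries in blue and Plzf lu/lu libraries in red. Genes are ordered by their mean within the paternal class, the maternal class and Gnas, and both classes run from about 100 CPM (Inpp5f, Ube3a) down to a few CPM.

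No gene was detected in over 45.6% of the cells, and the median gene was in 12.2%. Of the 37 genes, 19 had a UMI in at least 10% of the cells. Inpp5f was found in 45.6% of cells (exact Clopper-Pearson 95% interval 42.8 to 48.4), Gnas in 43.6% (40.8 to 46.4) and Ube3a in 41.4% (38.6 to 44.2). When each cell was thinned to 2000 UMIs, which left out 82 shallower cells, only 4 genes reached 10%, and the shares of these 3 genes were 21.3%, 20.2% and 15.7%. The shares thus depend on depth, and intervals cover counting error only. Somatic-rich cells were too few and too shallow for a background share, with 20739 UMIs of all genes in 10 Plzf +/+ cells and 90270 in 20 Plzf lu/lu cells. Of the 37 genes, 10 and 15 had a UMI there. The median depth was 1832 and 3507 UMIs, against 5914 and 6464 UMIs in cells rich in neither list.

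The Igf2 and H19 domain, with a fetal growth factor and the noncoding RNA that shares its enhancers, was active at both ends. Igf2 (chr7:142650768-142666816 in GRCm38.p6) stood at 53.8, 32.4 and 45.6 CPM in Plzf +/+ plates 1, 2 and 4 and at 47.8 and 52.3 CPM in Plzf lu/lu plates 3 and 4. H19 (chr7:142575530-142578146) stood at 49.6, 38.2 and 23.6 CPM and at 33.9 and 24.1 CPM in the same order, which is kept for all values by library below. Both genes overlapped between the genotypes, with log2 differences, Plzf lu/lu minus Plzf +/+, of 0.17 (SE 0.27) and -0.26 (SE 0.36). Igf2r, the receptor that clears IGF2, was at 41.2, 35.3 and 45.1 CPM and at 35.5 and 36.2 CPM, whereas its antisense neighbour Airn had 6 UMIs. The 2 genes overlap on chromosome 17, and whether the counting used strand is not given in the sources used here, so reads of the shared stretch cannot be told apart.

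In the neighbouring Kcnq1 domain on chromosome 7, Cdkn1c, an inhibitor of cyclin-dependent kinases, was the most abundant gene. It was at 68.3, 52.6 and 58.4 CPM in Plzf +/+ and at 49.4 and 101 CPM in Plzf lu/lu libraries, whose values lie on both sides of the Plzf +/+ range. On plate 4 the ratio of Plzf lu/lu to Plzf +/+ was 1.72 (exact 95% interval 1.07 to 2.67), from 25 and 114 UMIs. Plate 4 intervals, here and below, cover counting error only and not the spread between cells or libraries. Without cells rich in spermatid or somatic genes, Cdkn1c on plate 4 was at 81.2 CPM in Plzf lu/lu and 55.5 CPM in Plzf +/+ (19 and 95 UMIs). Slc22a18, an organic cation transporter gene, was at 2.34, 5.75 and 4.10 CPM and at 5.18 and 4.02 CPM. Kcnq1, the potassium channel gene that hosts Kcnq1ot1, had 3 UMIs in each Plzf +/+ library (1.40, 1.23 and 1.54 CPM) and none in either Plzf lu/lu library. There 3 UMIs are worth 1.20 CPM on plate 3 and 12.1 CPM on plate 4, so plate 4 was too shallow to show such levels. Kcnq1 did not pass the filter on low counts, so the difference was not tested.

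Phlda2, a placental growth restrictor in the same domain (chr7:143501545-143503145), had few molecules in Plzf +/+ cells. It was at 5.61, 1.64 and 4.61 CPM (12, 4 and 9 UMIs) in Plzf +/+ libraries and at 21.1 and 24.1 CPM (53 and 6 UMIs) in Plzf lu/lu libraries. Both Plzf lu/lu libraries lay above all Plzf +/+ libraries. The log2 difference was 2.48 (SE 0.52), which did not pass the threshold over all genes (edgeR's quasi-likelihood test, adjusted p = 0.0741). On plate 4 the ratio of Plzf lu/lu to Plzf +/+ was 5.23 (exact 95% interval 1.53 to 16.5), from 6 and 9 UMIs. Within Gfra1-positive cells, those with a UMI of Gfra1, the log2 difference was 2.29 (SE 0.71), and within Gfra1-negative cells it was 1.86 (SE 0.55; edgeR, adjusted p = 0.257 and 0.214). A UMI of Phlda2 was found in 2.56% of Plzf +/+ and 11.9% of Plzf lu/lu cells, or in 0.719% and 3.60% at 2000 UMIs per cell. Without the cells rich in spermatid or somatic genes, the difference was 2.46 (SE 0.50) and passed (edgeR, adjusted p = 0.0430). With those cells out, the call was lost when any of 4 libraries was left out as well, with adjusted p (edgeR) of 0.0849 and 0.214 for Plzf +/+ plates 2 and 4 and of 0.373 and 0.133 for Plzf lu/lu plates 3 and 4, and held without Plzf +/+ plate 1, where 4.98% of all genes were called. The log2 differences in these 4 fits were 2.06, 2.64, 2.59 and 2.39, in the same order, and the fits called 0.757%, 0.0607%, 0.00720% and 0.237% of all genes tested. In the last 2 the lone Plzf lu/lu library was assumed to vary like the Plzf +/+ libraries. Fewer cells of a type and less RNA per cell cannot be told apart in such sums over a library.

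In the Snrpn domain on chromosome 7, which in humans is the Prader-Willi and Angelman region, Snrpn was the gene that differed between the genotypes. Snrpn (chr7:59982495-60450177), which encodes a splicing protein of small nuclear ribonucleoproteins, was at 24.3, 16.4 and 20.0 CPM (52, 40 and 39 UMIs) in Plzf +/+ libraries and at 62.2 and 88.5 CPM (156 and 22 UMIs) in Plzf lu/lu libraries. The lower of the Plzf lu/lu libraries was thus above the highest Plzf +/+ library. The means were 20.3 ± 4.0 CPM (SD, n = 3) and 75.3 ± 18.6 CPM (SD, n = 2), and Snrpn rose by a log2 difference of 1.83 (SE 0.28), a 3.54-fold change (edgeR's quasi-likelihood test, adjusted p = 0.0319).

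Snrpn was the only one of the 27 imprinted genes tested with an adjusted p under 0.05, where 0.816% of all 13728 genes were called. On plate 4, where both genotypes were processed together, it had 22 UMIs in Plzf lu/lu and 39 in Plzf +/+ cells, a ratio of 4.43 per library size (exact 95% interval 2.499 to 7.651, counting error only). The call was lost when any of 4 libraries was left out, with adjusted p (edgeR) of 0.148 and 0.206 for Plzf +/+ plates 2 and 4 and of 0.344 and 0.128 for Plzf lu/lu plates 3 and 4, and held without Plzf +/+ plate 1. The log2 differences in these 4 fits were 1.698, 1.77, 2.11 and 1.61, in the same order, and the fits called 0.00750%, 0.00736%, 0.00695% and 0.0404% of all genes tested. Without a Plzf lu/lu library, the lone one left was assumed to vary like the Plzf +/+ libraries. Thinned to 2000 UMIs per cell the log2 difference was 1.12 (SE 0.37; edgeR, adjusted p = 0.0956). Snurf, which is encoded by the same transcripts, and the antisense transcript Snhg14 were not analysed here.

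The other genes of the Snrpn domain showed no called difference. Ndn, which encodes the MAGE protein necdin, was at 38.4, 25.5 and 42.6 CPM in Plzf +/+ and at 28.3 and 8.04 CPM in Plzf lu/lu libraries, the last from 2 UMIs. On plate 4 the ratio of Ndn was 0.189 (exact 95% interval 0.0225 to 0.705). Ube3a was among the steadiest, at 95.9, 87.5 and 108 CPM and at 97.6 and 101 CPM, with a log2 difference of 0.02 (SE 0.17). Mkrn3, a RING finger gene, was at 8.42, 6.57 and 5.13 CPM and at 6.38 and 12.1 CPM. Magel2 and Peg12, which lie between Ndn and Mkrn3 or just beyond it, had 1 and 4 UMIs, so levels within this domain ran from 98.0 CPM for Ube3a down to single molecules.

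In the Peg3 domain, Peg3, a zinc finger gene, was at 27.1, 23.0 and 17.9 CPM in Plzf +/+ and at 25.1 and 20.1 CPM in Plzf lu/lu libraries. Usp29, transcribed the other way from the start region shown above, and Zim1, a maternally expressed neighbour, had 3 UMIs each. The 3 UMIs of Zim1 fell in the 3 Plzf +/+ libraries, which is at the floor of what a library can show.

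The Dlk1 and Meg3 domain on chromosome 12 was active on both sides. Dlk1 (chr12:109452485-109463336), a Notch-related ligand gene, was at 24.3, 17.3 and 17.4 CPM in Plzf +/+ libraries and at 55.0 and 20.1 CPM in Plzf lu/lu libraries (138 and 5 UMIs). Only Plzf lu/lu plate 3 stood apart, and the groups overlapped. The log2 difference of 1.15 (SE 0.36; edgeR, adjusted p = 0.205) did not pass the threshold. On plate 4 the ratio of Plzf lu/lu to Plzf +/+ was 1.15 (exact 95% interval 0.352 to 2.97).

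Of the maternally expressed noncoding RNAs of the domain, Meg3 was near the Plzf +/+ levels of Dlk1 and Rian and Mirg were lower on average. Meg3 was at 24.8, 21.4 and 17.9 CPM and at 23.9 and 16.1 CPM. Rian, which hosts small nucleolar RNAs, was at 10.8, 10.7 and 17.9 CPM and at 9.16 and 8.04 CPM, the last from 2 UMIs. Both Plzf lu/lu values of Rian lay below all Plzf +/+ values, with a log2 difference of -0.54 (SE 0.44; edgeR, adjusted p = 0.674). Mirg, a host of microRNAs at the far end, was at 0.936, 3.70 and 2.56 CPM and at 1.59 and 4.02 CPM.

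On proximal chromosome 6, Peg10, a gene derived from a retrotransposon and needed in the placenta (chr6:4747306-4760517), had 70 UMIs in all. It was at 4.21, 2.46 and 3.08 CPM in Plzf +/+ libraries and at 18.3 and 12.1 CPM (46 and 3 UMIs) in Plzf lu/lu libraries, with no overlap. The log2 difference was 2.34 (SE 0.46; edgeR, adjusted p = 0.0632). Somatic-rich cells numbered 3, 7 and 0 in the Plzf +/+ libraries and 19 and 1 in Plzf lu/lu libraries, and 41.4% of the UMIs of Peg10 came from cells rich in spermatid or somatic genes. Without those cells the libraries were at 2.96, 1.82 and 2.34 CPM and at 9.91 and 12.8 CPM (24 and 3 UMIs in Plzf lu/lu), and the log2 difference was 2.13 (SE 0.59; edgeR, adjusted p = 0.119).

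The neighbours of Peg10 showed no such difference. Sgce, which shares its start region with Peg10 and encodes a sarcoglycan, had 20 UMIs in all, at 3.28, 3.70 and 0 CPM and at 1.59 and 0 CPM. Ppp1r9a, a neuronal actin-binding protein gene, was at 27.1, 18.1 and 24.1 CPM and at 23.5 and 20.1 CPM.

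Further along chromosome 6, Mest (chr6:30733506-30748466), which encodes a predicted hydrolase, was at 23.9, 21.4 and 20.0 CPM in Plzf +/+ and at 34.3 and 56.3 CPM in Plzf lu/lu libraries. Both Plzf lu/lu libraries were above the others, the log2 difference was 0.92 (SE 0.29; edgeR, adjusted p = 0.208), and on plate 4 the ratio was 2.82 (exact 95% interval 1.41 to 5.30). At 2000 UMIs per cell the log2 difference of Mest was 0.20 (SE 0.52). Copg2, a coatomer subunit gene whose 3′ end overlaps that of Mest, was at 54.7, 37.4 and 51.3 CPM and at 36.7 and 56.3 CPM. Nap1l5, a nucleosome assembly gene, was at 5.15, 3.29 and 2.56 CPM and at 3.59 and 8.04 CPM.

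Nnat and Blcap form a small domain on chromosome 2, where Nnat, a proteolipid gene of the brain, lies within Blcap. Nnat was at 15.9, 9.45 and 12.8 CPM in Plzf +/+ libraries, and at 22.3 CPM in Plzf lu/lu plate 3 and 0 in Plzf lu/lu plate 4, where 3 UMIs are worth 12.1 CPM. Blcap, an apoptosis-related gene, was at 59.4, 47.2 and 49.2 CPM and at 59.8 and 68.4 CPM. The Blcap groups did not overlap, but only by a margin smaller than the spread within either group (log2 difference 0.27, SE 0.21; edgeR, adjusted p = 0.658). Gnas, also on chromosome 2, was at 108, 106 and 106 CPM and at 141 and 96.5 CPM.

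Grb10 (chr11:11930499-12037428), an adaptor that restrains insulin and growth factor receptors, was at 6.08, 2.46 and 7.18 CPM in Plzf +/+ and at 13.9 and 16.1 CPM (35 and 4 UMIs) in Plzf lu/lu libraries. There was no overlap, and the log2 difference was 1.48 (SE 0.53; edgeR, adjusted p = 0.259). Without cells rich in spermatid or somatic genes it was 1.27 (SE 0.53).

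Lower in both Plzf lu/lu libraries were Impact and Inpp5f. Impact, which regulates translation through the GCN pathway, was at 29.5, 25.1 and 33.8 CPM in Plzf +/+ and at 15.1 and 4.02 CPM (38 and 1 UMI) in Plzf lu/lu libraries, with a log2 difference of -1.19 (SE 0.38; edgeR, adjusted p = 0.211). Without Plzf lu/lu plate 3 the difference was -2.86, from the 1 UMI of plate 4, and without Plzf lu/lu plate 4 it was -0.96. On plate 4 the ratio was 0.119 (exact 95% interval 0.00297 to 0.686). Inpp5f (chr7:128611181-128696436), of which a short isoform is the imprinted product in the brain, was at 122, 108 and 118 CPM and at 64.6 and 84.5 CPM, with a log2 difference of -0.71 (SE 0.19; edgeR, adjusted p = 0.145). Neither passed the threshold over all genes, although all 3 Plzf +/+ libraries were above both Plzf lu/lu libraries in each.

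The remaining paternally and maternally expressed genes overlapped between the genotypes. Zrsr1, a splicing factor gene within an intron of Commd1, was at 50.1, 38.6 and 32.8 CPM and at 45.8 and 32.2 CPM. Trappc9, a subunit of a vesicle tethering complex, was at 21.1, 20.5 and 21.5 CPM and at 22.7 and 8.04 CPM, the last from 2 UMIs. Plagl1, a zinc finger gene, was at 2.81, 1.23 and 2.05 CPM and at 3.19 and 0 CPM, with 21 UMIs in all. Rasgrf1, a guanine nucleotide exchange factor gene, was at 1.87, 2.88 and 3.59 CPM and at 2.79 and 0 CPM, with 25 UMIs in all.

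**Figure D2:**
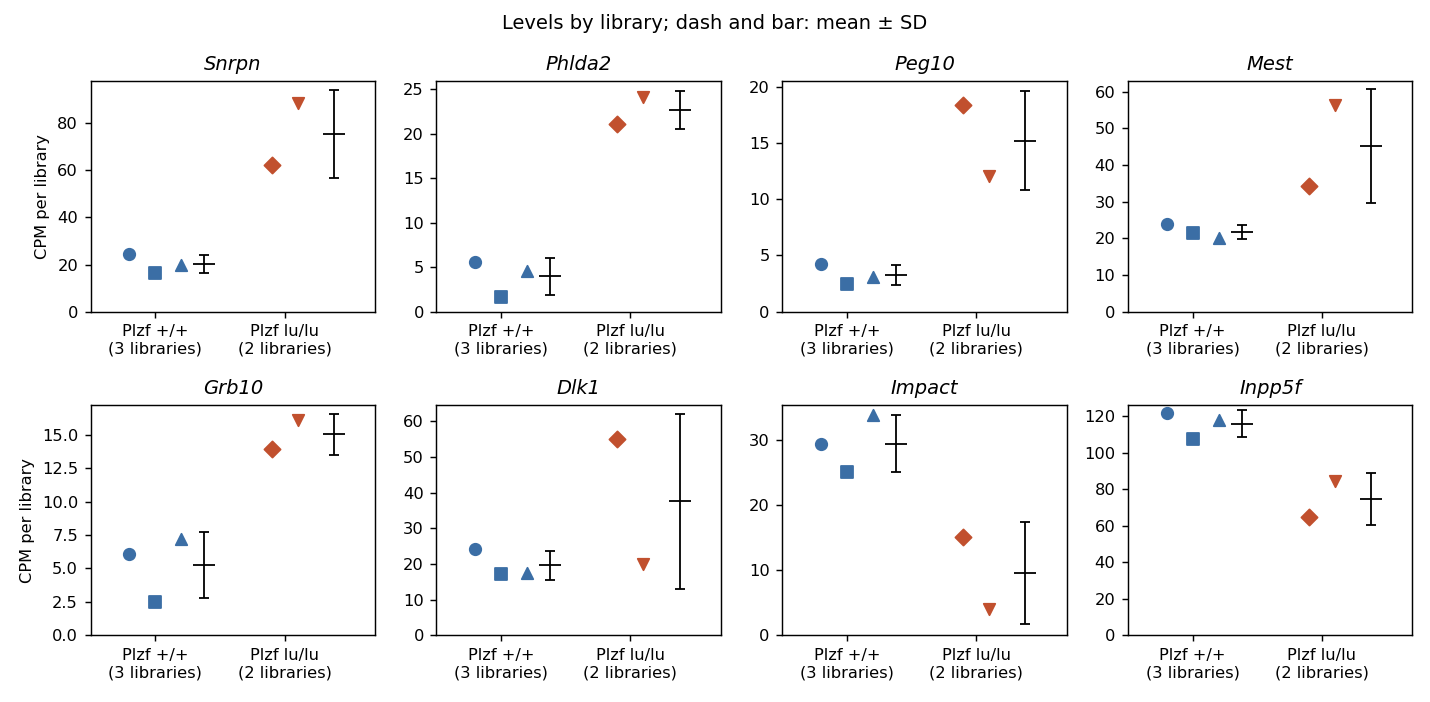
CPM in each library of 8 imprinted genes, with the 3 Plzf +/+ libraries in blue (plate 1 circle, plate 2 square, plate 4 triangle) and the 2 Plzf lu/lu libraries in red (plate 3 diamond, plate 4 inverted triangle) and the mean ± SD of each group as a dash and bar. The groups are apart in Snrpn, Phlda2, Peg10, Mest, Grb10, Impact and Inpp5f, and overlap in Dlk1, where only Plzf lu/lu plate 3 is high.

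Over the whole list, 19 of the 27 genes tested had log2 differences between -0.61 and 0.40. Of all 27 genes tested, 18 were higher and 9 lower in Plzf lu/lu, with a median log2 difference of 0.15 against 0.00 over all 13728 genes. This balance changed with the cells and libraries used, to 13 of 27 higher (median -0.04) without Plzf lu/lu plate 3, 15 of 27 (median 0.04) without cells rich in spermatid or somatic genes and 7 of 19 (median -0.17) at 2000 UMIs per cell. By unadjusted p under 0.05, 8 of the 27 differed (6 higher: Snrpn, Peg10, Phlda2, Mest, Dlk1 and Grb10; 2 lower: Inpp5f and Impact), where 14.2% of all genes did. Both Plzf lu/lu libraries were above all Plzf +/+ libraries in 6 of 27 genes, where 18.5% of all genes were so placed, and below in 3 of 27, where 16.0% were, so these counts were near the background. In the paternal class 10 of 13 genes were higher (median log2 difference 0.17), and in the maternal class 7 of 13 (median 0.02), and the 6 genes with both Plzf lu/lu libraries on top were 3 of each class. No test between the classes was made.

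**Figure D3:**
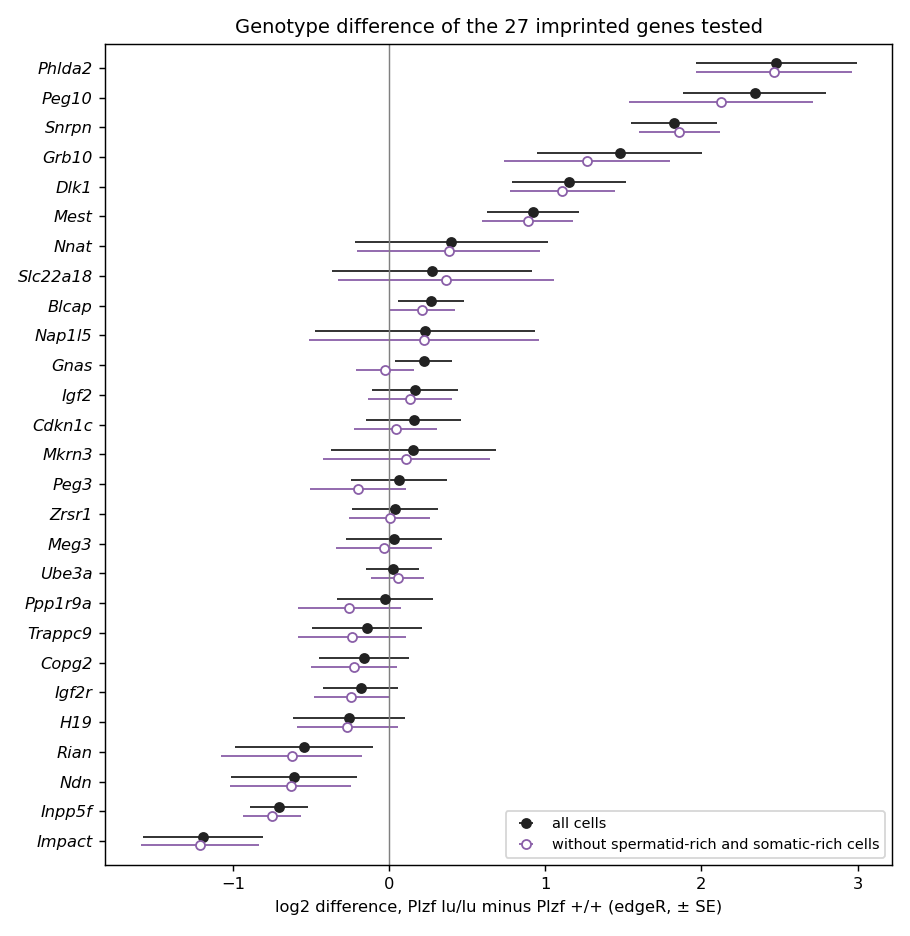
Genotype difference of each of the 27 imprinted genes tested, as log2 of Plzf lu/lu over Plzf +/+. It is shown over all cells (filled) and without cells rich in spermatid or somatic genes (open). Each SE was derived from the log2 difference and the F statistic of edgeR's quasi-likelihood test. Phlda2, Peg10 and Snrpn lie highest, at 2.48, 2.34 and 1.83, Impact lowest at -1.19, and the genes from Nnat to Ndn between 0.40 and -0.61.

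The count of called genes depended on the cells and libraries used. Without cells rich in spermatid or somatic genes, Snrpn and Phlda2 were called, 2 of 27, where 1.64% of all genes were. With no filter on low counts, Snrpn, Phlda2, Peg10, Dlk1 and Inpp5f were called, 5 of 37, where 2.27% of all genes were. With Plzf +/+ plate 1 left out, these 5 genes were called again, of 26 tested, where 10.2% of all genes were. At 2000 UMIs per cell, Inpp5f alone was called, lower in Plzf lu/lu by a log2 difference of -0.95 (SE 0.24), where 4.11% of all genes were.

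Between Gfra1-positive and Gfra1-negative cells, 5 of the 20 imprinted genes tested had the same direction in all 5 libraries, where 11.8% of all genes tested did, and none of the 5 passed the test. The 700 Gfra1-positive and 549 Gfra1-negative cells were summed by library and compared with the library as a block. None of the 20 imprinted genes that passed the filter was called by edgeR's quasi-likelihood test, where 0.189% of all 10603 genes were, and 4 had an unadjusted p under 0.05, where 9.15% of all genes did. DESeq2 called 1 of the 20, Dlk1, where it called 0.519% of all genes. With no filter on low counts edgeR called 2 of 37, Dlk1 and Phlda2, where 1.03% of all genes were called, and with the state read at 2000 UMIs per cell it called 2 of 19, Impact and Ndn, where 13.2% were. Gfra1-positive cells were deeper, with median UMIs of 6560 against 4596 in Plzf +/+ and 9418 against 4545 in Plzf lu/lu, and the part of this gap in the results was not tested.

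Dlk1 was lower in Gfra1-positive cells of all 5 libraries. It was at 35.7, 45.2 and 30.1 CPM in Gfra1-negative and at 20.2, 10.8 and 11.9 CPM in Gfra1-positive cells of the Plzf +/+ libraries, and at 70.6 and 33.1 CPM against 37.4 and 8.02 CPM in Plzf lu/lu libraries. The log2 difference, Gfra1-positive minus Gfra1-negative, was -1.25 (SE 0.26; edgeR, adjusted p = 0.109; DESeq2, adjusted p = 0.0356). Phlda2 and Grb10 had too few counts to pass the filter. Phlda2 had 8, 2 and 6 UMIs in Gfra1-negative and 4, 2 and 3 UMIs in Gfra1-positive Plzf +/+ cells, and 39 and 5 against 14 and 1 UMIs in Plzf lu/lu cells. Its CPM was lower in Gfra1-positive cells of each library, but several of these values are at or under 3 UMIs. The same holds for Grb10, which on Plzf +/+ plate 4 was at 7.93 CPM in Gfra1-negative and 7.16 CPM in Gfra1-positive cells (5 and 9 UMIs).

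Snrpn, Igf2 and H19 were higher in Gfra1-positive cells of all 5 libraries. Snrpn was at 13.0, 11.8 and 17.4 CPM in Gfra1-negative and at 29.7, 19.3 and 22.3 CPM in Gfra1-positive Plzf +/+ cells, and at 46.3 and 49.6 CPM against 75.7 and 128 CPM in Plzf lu/lu cells. Within each state, then, both Plzf lu/lu libraries were above all Plzf +/+ libraries, with a log2 difference between the genotypes of 1.97 (SE 0.33) in Gfra1-positive and 1.73 (SE 0.40) in Gfra1-negative cells (edgeR, adjusted p = 0.0783 and 0.0882, where 0.0885% and 0.488% of all genes were called). Between the states the log2 difference was 0.82 (SE 0.23) for Snrpn, 0.56 (SE 0.18) for Igf2 and 0.66 (SE 0.25) for H19 (edgeR, adjusted p = 0.227, 0.309 and 0.438).

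Ube3a was lower in Gfra1-positive cells of all 5 libraries, by a log2 difference of -0.21 (SE 0.15; edgeR, adjusted p = 0.748). In the paternal class 7 of 10 genes tested were higher in Gfra1-positive cells, and in the maternal class 5 of 9. The test of whether the genotype difference depended on Gfra1 state called 0 of the 20 genes and 0% of all 10603 by edgeR, with 1 of the 20 under an unadjusted p of 0.05 (Nnat, log2 difference 1.54, SE 0.69), where 7.37% of all genes were, and DESeq2 also called 0.

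**Figure D4:**
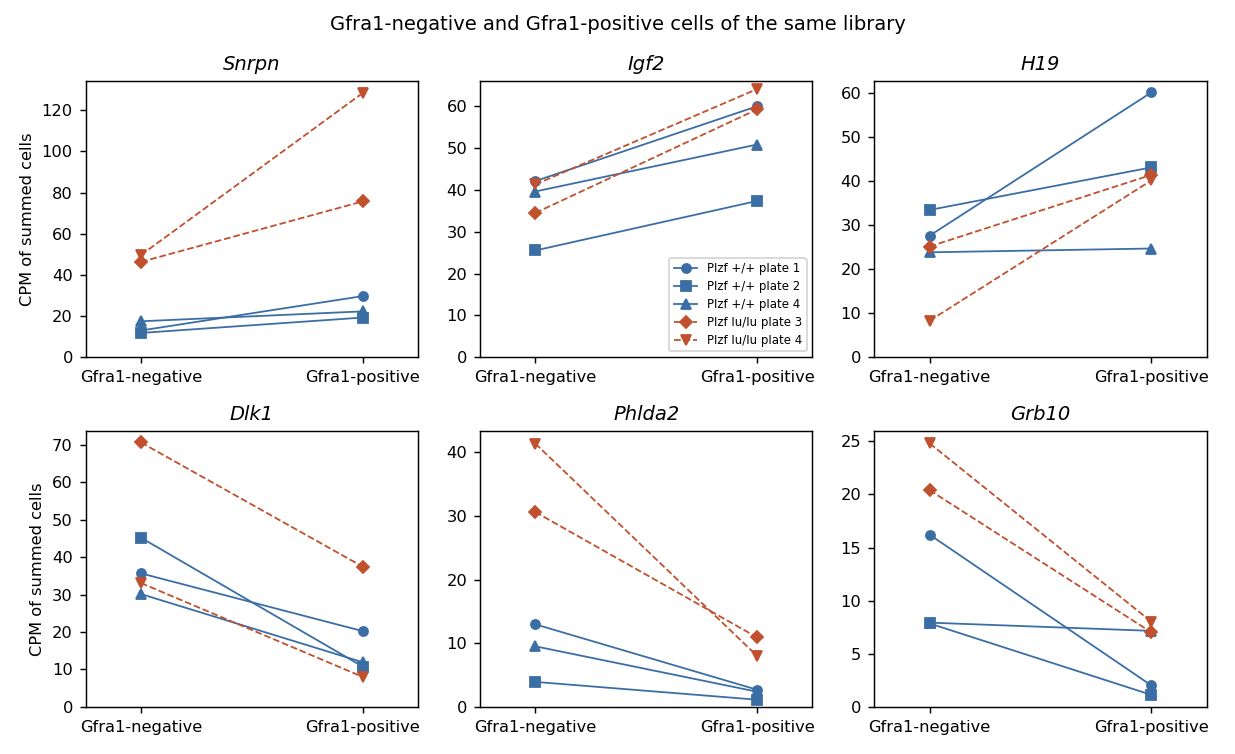
CPM of 6 imprinted genes in the summed Gfra1-negative and Gfra1-positive cells of the same library, joined by a line for each library (Plzf +/+ blue and solid, Plzf lu/lu red and dashed). Snrpn, Igf2 and H19 go up in all 5 libraries and Dlk1, Phlda2 and Grb10 go down, the last 2 with several points at or under 3 UMIs, while both Plzf lu/lu lines of Snrpn lie above all Plzf +/+ lines.

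Levels in the few cells rich in somatic or spermatid genes are given as sums over cells of several libraries, with no test. In somatic-rich cells Gnas stood at 1350 CPM in Plzf +/+ and 953 CPM in Plzf lu/lu (28 and 86 UMIs), against 102 and 107 CPM in cells rich in neither list. Peg10 was at 193 and 233 CPM (4 and 21 UMIs) against 2.35 and 9.92 CPM. Peg3 had 1 and 11 UMIs there. Inpp5f, H19, Dlk1, Cdkn1c and Phlda2 had no UMI in the somatic-rich cells, where 3 UMIs are worth 145 CPM in Plzf +/+ and 33.2 CPM in Plzf lu/lu, so a lower level than in other cells was not detectable for these 5 genes in Plzf +/+, nor for Phlda2, at 21.7 CPM in cells rich in neither list, in Plzf lu/lu. In spermatid-rich cells Cdkn1c was at 95.1 CPM in Plzf +/+ and 194 CPM in Plzf lu/lu, against 56.7 and 51.1 CPM, and Inpp5f was at 41.8 and 0 CPM against 122 and 67.2 CPM, where 3 UMIs are worth 5.70 and 58.1 CPM.

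**Figure D5:**
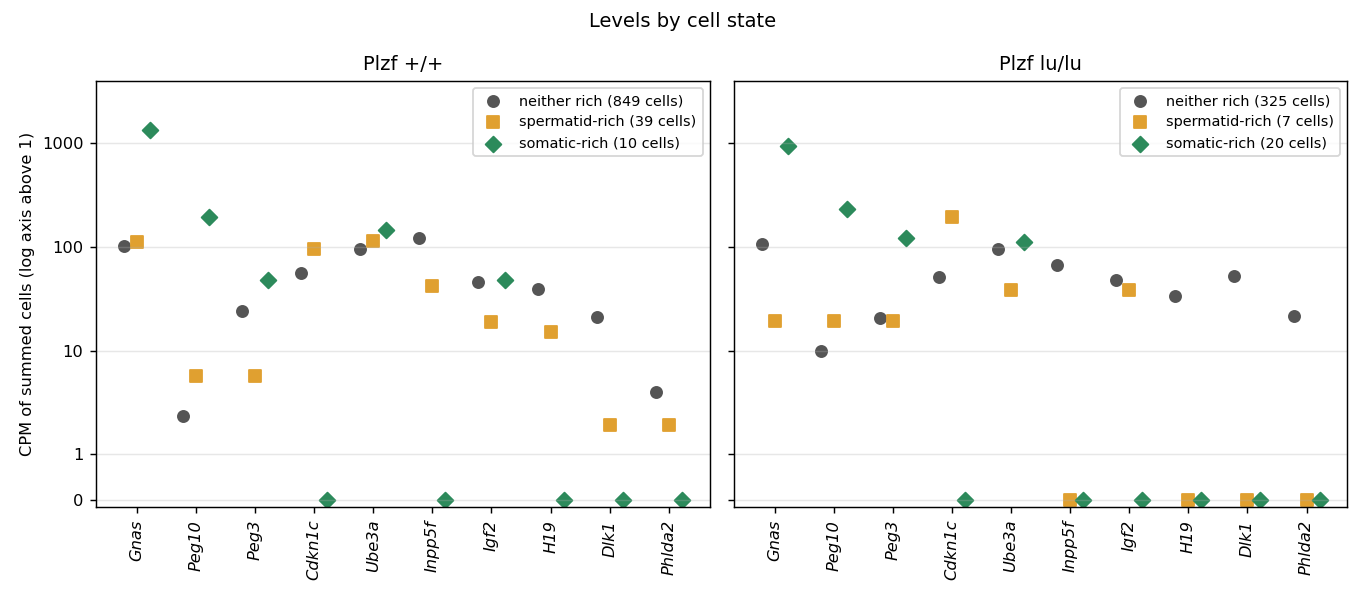
CPM of 10 imprinted genes in summed cells rich in neither list, rich in spermatid genes and rich in somatic genes, by genotype, on an axis that is logarithmic above 1. Gnas and Peg10 are highest in somatic-rich cells of both genotypes, at 953 to 1350 and 193 to 233 CPM, while Inpp5f, H19, Dlk1, Cdkn1c and Phlda2 have no UMI there, where 3 UMIs are worth 145 and 33.2 CPM.

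The machinery that sets and keeps imprints was examined as a list of 21 genes, among them the DNA methyltransferases Dnmt1, Dnmt3a and Dnmt3b, the cofactor Dnmt3l, Zfp57 and Trim28, which protect methylated imprints, and Ctcf, which binds the unmethylated H19 control region. Of these, 20 had a UMI and 15 passed the filter. None of the 15 was called between the genotypes by edgeR's quasi-likelihood test, 2 were higher and 2 lower by unadjusted p under 0.05, where 14.2% of all genes differed, and the lowest adjusted p was 0.0735. Both Plzf lu/lu libraries were above the others in 2 and below in 4 of the 15 genes, where 18.5% and 16.0% of all genes were, and the median log2 difference was -0.07. Between Gfra1 states 0 of 13 were called, with 4 under an unadjusted p of 0.05, where 9.15% of all genes were.

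A second list held 36 further imprinted genes outside the 38, such as Zdbf2, Ascl2, Sfmbt2 and Slc38a4. Of these, 30 had a UMI and 19 passed the filter. None was called between the genotypes (edgeR, lowest adjusted p = 0.0666), and 4 were higher and 0 lower by unadjusted p under 0.05, against the same 14.2% of all genes. Both Plzf lu/lu libraries were above the others in 4 and below in 1 of the 19 genes, against 18.5% and 16.0% of all genes, with a median log2 difference of 0.11. Between Gfra1 states 0 of 12 were called, with 1 under an unadjusted p of 0.05, against 9.15% of all genes.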

How the data were processed

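The authors deposited 1 table of raw UMI counts per gene symbol and cell for each genotype, without normalization. Per the labels, bcl2fastq 2.18.0.12, Picard 2.9.3 and STAR 2.5.4a were used with GRCm38, and the strand setting of the counting is not given in the sources used here. Cells were assigned to libraries by the ending of their names and to the genotype of their table, and wells were checked against the labels (5 Plzf +/+ cells of plate 4 lay outside the labelled wells). The members and lists were chosen with earlier results of these data known.

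UMIs were summed per library, filtered by filterByExpr, scaled by TMM and tested with edgeR 4.0.16 (R 4.3.3; glmQLFit, robust; glmQLFTest), with Benjamini-Hochberg adjustment over all genes tested and calls at an adjusted p under 0.05. Plate could not be a block, since no residual degrees of freedom remain. SEs given with edgeR are the absolute log2 difference divided by the square root of the F statistic. DESeq2 1.42.0 was an alternative. A cell with no UMI of Gfra1 was Gfra1-negative. Doublets were not called, as single cells were sorted to wells, and 26 cells had over 4 times the median UMIs of all cells. Members with at least 20 UMIs are given by library, and those called or with groups that do not overlap 1 by 1. The fits were tested on simulated counts. Plate 4 Plzf lu/lu holds 38 cells, so 3 UMIs are 12.1 CPM there against 1.20 to 1.54 CPM elsewhere. Other assays of the study were not used here.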

Additional observations from a re-analysis of the deposited data

Results flagged for a closer look

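Mirg, the microRNA host gene of the Dlk1 and Meg3 domain, went in opposite directions between Gfra1 states in the 2 genotypes. In Plzf +/+ libraries it was at 0 CPM in Gfra1-negative cells and at 1.35, 5.10 and 3.98 CPM in Gfra1-positive cells of plates 1, 2 and 4. In Plzf lu/lu libraries it was at 2.35 and 8.27 CPM in Gfra1-negative and at 0.780 and 0 CPM in Gfra1-positive cells of plates 3 and 4. The mean change was thus lower in Plzf lu/lu by a difference of -8.40 CPM. The gene had 21 UMIs in all, 1 of them in Plzf lu/lu plate 4, and did not pass the filter, so this difference was not tested.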

How the results depend on the processing

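Against 1 of 27 imprinted genes called between the genotypes, edgeR called 5 of 37 with no filter on low counts, 2 of 27 without cells rich in spermatid or somatic genes, 0 of 23 in Gfra1-positive cells only and 0 of 22 in Gfra1-negative cells only, where 0.0885% and 0.488% of all genes were called in the last 2. Leaving out each library gave 0 to 5 calls, with 0.00695% to 10.2% of all genes called, and leaving out each library as well as the rich cells, an alternative chosen after seeing the data, gave 0 to 5, with 0.00720% to 4.98%. So few genes were called in most of these fits that counts of 0 say nothing about the imprinted genes. Snrpn kept its direction in every alternative run, at log2 differences of 1.12 to 2.17. With 1 library left out, the difference of Dlk1 ran from 0.0157 (Plzf lu/lu plate 3) to 1.48 (Plzf +/+ plate 1), and with the rich cells left out as well from -0.0266, reversed (Plzf lu/lu plate 3), to 1.41 (Plzf lu/lu plate 4). Between Gfra1 states, where 0 of 20 were called, DESeq2 called 1 (Dlk1), the fit with no filter called 2 (Dlk1 and Phlda2) and the state read at 2000 UMIs per cell called 2 (Impact and Ndn, higher), where 1.03% and 13.2% of all genes were called in the last 2. Leaving out each library gave 0 throughout, as did the fit with no replicate block. The share of genes in at least 10% of cells fell from 19 to 4 at 2000 UMIs per cell and to 3 with at least 2 UMIs per cell. The cause of the other changes was not tested. With 38 cells in 1 of 2 Plzf lu/lu libraries, depth limits every member under about 12 CPM there: 9 members had 1 to 3 UMIs and 4 of those with at least 20 UMIs had none.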

Other observations

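Some members drew many of their molecules from a single cell. For Slc22a18, 1 cell held 19.5% of its 41 UMIs. Peg10 had 10.0% of its 70 UMIs in 1 cell. For Inpp5f, Gnas and Igf2 the highest cell held 0.749%, 1.03% and 1.20%.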
